A study of Homo sapiens with 16 samples.

Results

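Matrix metalloproteases (MMPs), ADAMs, ADAMTS proteases and the tissue inhibitors of metalloproteases (TIMPs) were followed as 1 gene module in PC3 cells. Members were the protein-coding genes whose symbol is MMP, ADAM, ADAMTS or TIMP plus a number. There were 63 of them among the 20356 genes of the count table, namely 20 MMPs, 20 ADAMs, 19 ADAMTS genes and 4 TIMPs. ADAMTSL genes and symbols with a letter after the number, such as MMP23B, lay outside the rule. PC3 is an established human prostate cancer cell line, and DDX4 is an RNA helicase best known from germ cells. RNA was sequenced from 4 groups of 4 libraries: PC3 cells labelled DDX4-null and grown as monolayers, control PC3 monolayers, xenograft tumors of DDX4-null PC3 cells, and xenograft tumors of control PC3 cells. The design text of the series calls the controls WT, and all 4 groups share the PC3 background. The labels give neither how DDX4 was removed, nor the number of clones, nor the host animal, its age or the age of the tumors. Whether replicate libraries stem from distinct cultures or hosts is also not labelled. All p-values therefore rest on library-to-library spread, part of which may be technical.

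Library totals lay between 12204254 and 25443952 counts, and every pair of replicates differed by more than sampling noise. DDX4 itself held 0 to 5 counts in every library, so its RNA does not check the labels. The epithelial markers KRT8, KRT18, KRT19, EPCAM and CDH1 were all above 1 CPM (the gene's counts relative to the scaled total of the library) in every group. KLK3, the prostate-specific antigen gene that PC3 lacks, was at or near 0 in every group. In the 8 monolayer libraries the changes with genotype also followed chromosomes. The median log2 change ran between −0.73 on chromosome 7 and 0.48 on chromosome 21, so a difference in cell population cannot be told apart from the genotype. Between the genotypes in tumors, chromosomes 7 and 21 had medians of 0.01 and 0.03. The medians there ran between −0.19 on chromosome 20 and 0.06 on chromosome 13. In control tumors against cells they ran between −0.22 on chromosome 18 and 0.26 on chromosome 19, with −0.17 and 0.17 on chromosomes 7 and 21. Chromosomes 7 and 21 had 0.55 and −0.45 in DDX4-null tumors against cells. For the genotype change in tumors minus that in cells they had 0.72 and −0.485. There, and in DDX4-null tumors against cells, a difference in cell population cannot be told apart from the setting.

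MMPs are zinc proteases that cut collagens, proteoglycans and other matrix proteins, most of them made as inactive precursors, and the membrane-type MMPs act at the cell surface. ADAMs are membrane proteins whose active members release the outer parts of growth factors, cytokines and adhesion molecules, while ADAMs without the zinc-binding motif serve in adhesion and signalling. ADAMTS proteases are secreted and process procollagens, proteoglycans, fibrillin-linked proteins and von Willebrand factor. TIMPs block these proteases, and the balance of both has long been studied in prostate cancer invasion and in the remodelling of tumor stroma.

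Levels of different genes were compared only per kilobase of exon. TIMP1 stood first in all 4 groups, with 140 CPM per kilobase in DDX4-null cells, 553 in control cells, 160 in DDX4-null tumors and 157 in control tumors. After TIMP1 came MMP1 (68.9 CPM per kilobase) and TIMP2 (63.4) in DDX4-null cells, and ADAM15 (85.6) and MMP1 (53.0) in control cells. ADAM15 (80.6) and MMP14 (71.4) followed it in DDX4-null tumors, and MMP14 (75.3) and ADAM15 (74.7), which were close to each other, in control tumors. The mean reached 1 CPM for 38 members in DDX4-null cells, 31 in control cells, 39 in DDX4-null tumors and 36 in control tumors. ADAM7, ADAM18, ADAM29, ADAM30 and MMP26 had no count in any library. Where a library listed 0, up to 3 counts could have been missed, which was worth 0.118 to 0.246 CPM per library.

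DDX4-null cells had less TIMP1 and more of many ADAMTS proteases, TIMP2 and TIMP3 than control cells. Of the 63 members, 38 passed the filter on low counts, and edgeR's quasi-likelihood test with Benjamini-Hochberg adjustment over all 13006 genes tested called 21 higher and 8 lower at 0.05. Over all genes tested it called 35.0% higher and 32.3% lower, so a call by itself was common in this comparison. Of the 21 rises, 7 were in genes below 1 CPM in control cells, which passed the filter only through the DDX4-null libraries. The groups did not overlap for 27 of the 38 members tested (71.1%), beside 59.4% of all genes tested. Of the 38, 13 rose and 6 fell at least 2-fold (34.2% and 15.8%), beside 13.0% and 8.66% of all genes tested.

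TIMP1, the secreted inhibitor of most soluble MMPs, fell. It had 205, 274, 183 and 204 CPM in DDX4-null cells, against 890, 729, 757 and 1030.4 CPM in control cells. Every DDX4-null library lay below every control library, and the means were 216 ± 39.6 CPM in DDX4-null cells and 852 ± 138 CPM in control cells (SD, n = 4 each). The log2 change was −1.98 ± 0.13 (SE; edgeR adjusted p = 1.2e-10), and −1.51 when changes were centred on the median of each chromosome, since the X chromosome had a median of −0.47. TIMP2, which also helps MMP14 to activate pro-MMP2, had 399, 300, 419 and 310 CPM in DDX4-null cells, against 160, 184, 195 and 135 CPM in control cells. It rose by a log2 change of 1.08 ± 0.13 without overlap (adjusted p = 5.4e-07), and its exons overlap CEP295NL on the same strand. TIMP3, which binds to the matrix and also inhibits ADAM17 and aggrecanases, had 2.47, 3.37, 2.31 and 2.78 CPM in DDX4-null cells and no count in control cells. It was at least 57.0-fold higher in DDX4-null cells, counted against 3 counts over the control group (adjusted p = 1.9e-09). TIMP4 had 0.483, 0.591, 0.910 and 0.185 CPM in DDX4-null cells, against 1.72, 2.22, 1.60 and 1.42 CPM in control cells. It fell by 1.72 on the log2 scale (SE 0.32, adjusted p = 1.1e-04), and it overlaps exons of SYN2 on the other strand. So 2 of the 4 TIMPs rose and 2 fell. TIMP1 kept the highest level per kilobase of the 4 in both groups.

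**Figure D1:**
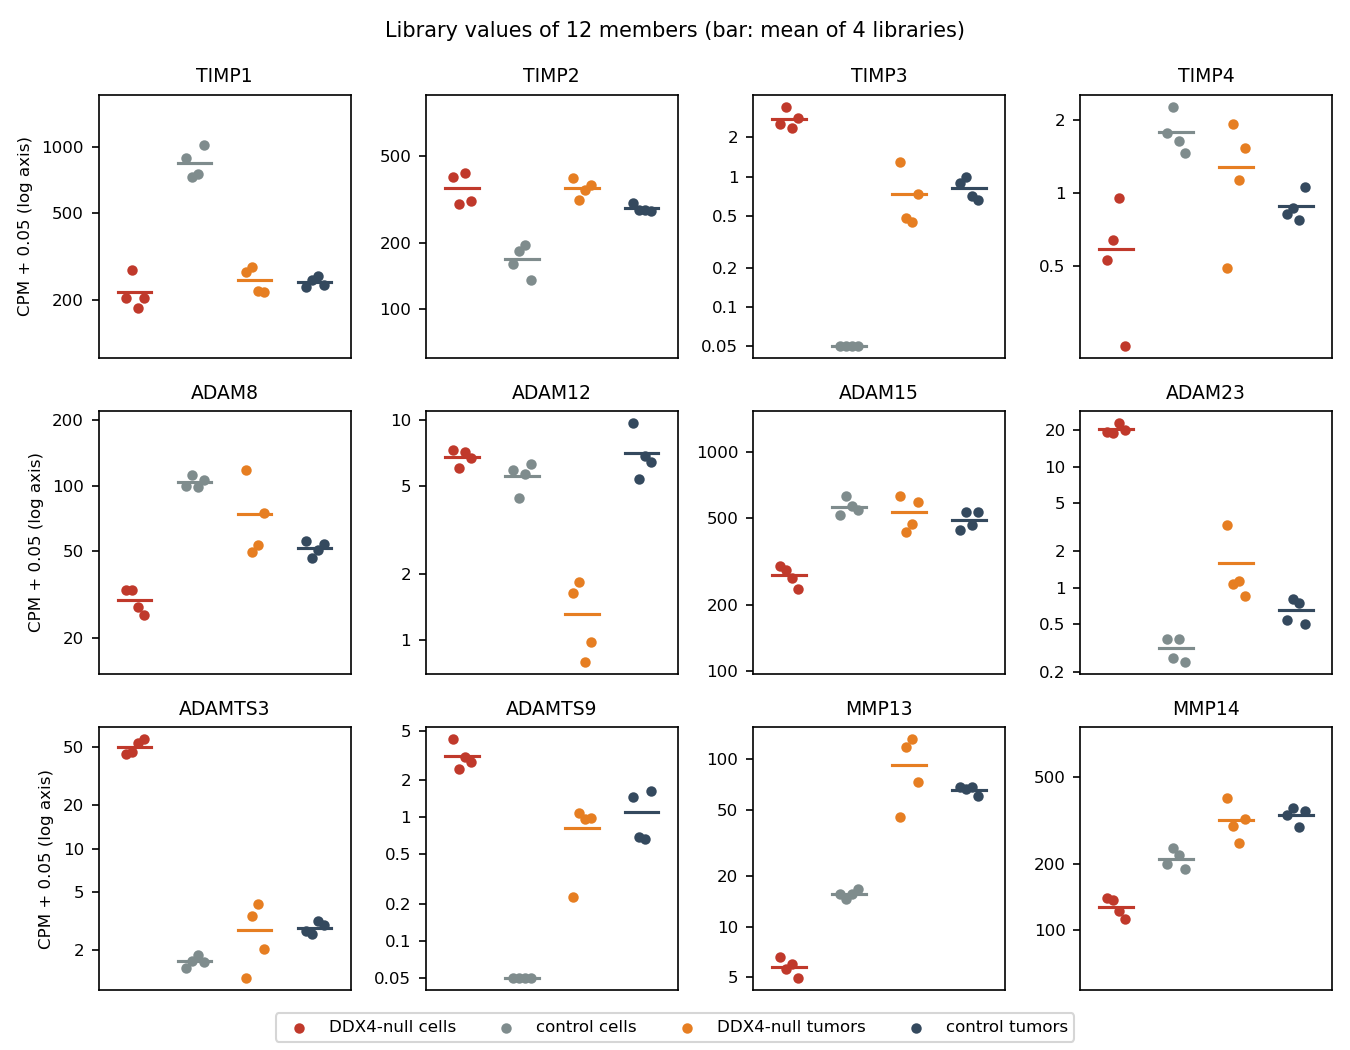
CPM + 0.05 on a log axis for 12 members, with 1 point per library and a bar at the mean of the 4 libraries of each group. TIMP1 lies at 183 to 274 CPM in DDX4-null cells and at 729 to 1030.4 CPM in control cells, while both tumor groups lie between 218 and 283 CPM. ADAM12 is low in DDX4-null tumors (0.744 to 1.78 CPM) and at 4.38 CPM or more in the other groups.

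The counts by family and role that follow stand beside 35.0% higher and 32.3% lower of all genes tested in monolayers. Of the MMPs, 10 passed the filter in monolayers, 6 rose and 2 fell. MMP13, a collagenase of cartilage and invasive tumors, had a mean of 5.69 ± 0.684 CPM in DDX4-null cells and 15.6 ± 0.926 CPM in control cells, and fell by 1.46 on the log2 scale (SE 0.13, adjusted p = 6.6e-09). MMP1, the interstitial collagenase, had 136 ± 20.6 CPM in DDX4-null cells and 104 ± 20.2 CPM in control cells. Its log2 change of 0.38 ± 0.13 (adjusted p = 0.0148) had overlapping groups and was lost without control library 2 or DDX4-null library 4 (largest adjusted p = 0.0636). MMP10, a stromelysin, was not called at 0.17 ± 0.13 (adjusted p = 0.254), and was called higher after centring by chromosome, at 0.44 (adjusted p = 0.00699). MMP11, a stromelysin that is activated by furin inside the cell, had 3.99 ± 0.330 CPM in DDX4-null cells and 1.05 ± 0.286 CPM in control cells and rose by a log2 change of 1.91 ± 0.20.

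All 6 membrane-type MMPs were tested, and 4 rose and 1 fell. MMP14, the main activator of pro-MMP2, fell by 0.73 on the log2 scale (SE 0.10), with 128 ± 13.4 CPM in DDX4-null cells and 212 ± 20.7 CPM in control cells. It lies on chromosome 14, whose median was −0.47, and its centred change was −0.26 (adjusted p = 0.0348). MMP16 rose by 0.97 ± 0.14, with 46.5 ± 9.73 CPM in DDX4-null cells and 23.8 ± 2.36 CPM in control cells. MMP15 had 6.13 ± 1.37 CPM in DDX4-null cells and 2.47 ± 0.365 CPM in control cells, a rise of 1.30 ± 0.19. MMP25, which is held in the membrane by a lipid anchor, had 1.83, 0.887, 1.46 and 1.34 CPM in DDX4-null cells, against 0.0662, 0.287, 0.497 and 0.259 CPM in control cells, and rose by a log2 change of 2.24 ± 0.38 (adjusted p = 3.6e-05). MMP24 rose by 0.57 ± 0.19 (adjusted p = 0.0127), with exons that overlap the antisense gene MMP24OS and a call that was lost without control library 4 (adjusted p = 0.0541). MMP17 was not called at −0.30 ± 0.14 (adjusted p = 0.0777).

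Of the ADAMs, 11 were tested, 5 rose and 3 fell. Among the 8 tested that carry the protease motif, ADAM8 and ADAM15 fell most. ADAM8, a protease of leukocytes and invasive tumor cells, had 33.1, 33.1, 27.8 and 25.5 CPM in DDX4-null cells, against 99.1, 112, 98.2 and 106 CPM in control cells, a log2 change of −1.80 ± 0.11 (adjusted p = 1.9e-11). ADAM15, an ADAM with an integrin-binding RGD motif in human, had 273 ± 28.9 CPM in DDX4-null cells and 564 ± 49.3 CPM in control cells, a log2 change of −1.05 ± 0.10, and shares exon sequence with DCST1 on the same strand. ADAM9 and ADAM10 rose by 0.47 ± 0.09 and 0.45 ± 0.10. ADAM10, the main sheddase of Notch and cadherins, was not called after centring by chromosome, at 0.18 (adjusted p = 0.109). ADAM17, the sheddase of TNF and of several EGF receptor ligands, was close to even, with 105 ± 5.48 CPM in DDX4-null cells and 107 ± 3.77 CPM in control cells (log2 change −0.03 ± 0.09, adjusted p = 0.762). After centring by chromosome it was called lower, at −0.23 (adjusted p = 0.0296). ADAM19 and ADAM12 were not called at 0.17 ± 0.09 and 0.29 ± 0.15. ADAM21 fell by 0.91 with overlapping groups and was not called after centring, at −0.44 (adjusted p = 0.104).

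All 3 tested ADAMs without the protease motif rose. ADAM23, a neuronal receptor of LGI proteins that is known to be silenced in several cancers, was the clearest. It had 19.4, 18.8, 22.9 and 19.9 CPM in DDX4-null cells, against 0.331, 0.215, 0.331 and 0.194 CPM in control cells, which held 17 counts in all. The log2 change was 6.18 ± 0.21 (adjusted p = 4.5e-15). ADAM11 had 13.5, 11.9, 14.6 and 11.6 CPM in DDX4-null cells, against 3.18, 3.44, 2.65 and 1.94 CPM in control cells, a log2 change of 2.21 ± 0.17 (adjusted p = 6.8e-10). Neither gene had overlapping groups. ADAM22, which pairs with LGI1 at synapses, rose by 0.36 ± 0.14 (adjusted p = 0.0245) and was not called in 4 of 8 fits that left out 1 library. It lies on chromosome 7, and its centred change was 1.09 (adjusted p = 9.7e-07).

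Of 13 ADAMTS genes tested, 8 rose and 1 fell. Of the procollagen N-propeptidases, ADAMTS3, which cuts procollagen II and also processes VEGFC, had 44.7, 45.8, 52.9 and 56.6 CPM in DDX4-null cells, against 1.46, 1.65, 1.82 and 1.62 CPM in control cells. The groups lay far apart, with a log2 change of 4.92 ± 0.15 (adjusted p = 1.0e-15). ADAMTS14 had 2.79, 1.71, 1.33 and 0.881 CPM in DDX4-null cells and no count in control cells, at least 34.6-fold higher in DDX4-null cells. Neither gene had overlapping groups.

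Of the proteoglycanases, ADAMTS9, which cuts versican, had 4.24, 2.42, 3.03 and 2.73 CPM in DDX4-null cells and no count in control cells, at least 64.9-fold higher in DDX4-null cells. ADAMTS8 had 1.34, 0.828, 1.27 and 1.39 CPM in DDX4-null cells and no count in control cells, at least 25.5-fold higher. Both genes were thus detected in every DDX4-null library and in no control library. ADAMTS1 rose by 0.66 ± 0.09, with 270 ± 15.9 CPM in DDX4-null cells and 171 ± 7.27 CPM in control cells. It lies on chromosome 21 and was not called after centring, at 0.18 (adjusted p = 0.0878). ADAMTS15 was the one ADAMTS gene that fell, with 12.8 ± 1.09 CPM in DDX4-null cells and 27.3 ± 1.32 CPM in control cells, a log2 change of −1.10 ± 0.11.

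Among the other ADAMTS genes, ADAMTS10, a protease linked to fibrillin microfibrils, had 2.58, 1.95, 0.728 and 1.67 CPM in DDX4-null cells, against 0, 0.144, 0.0552 and 0 CPM in control cells. The control group held 3 counts, so the ratio was 36.6 with a 95% counting interval of 12.2 to 180. ADAMTS7, which cuts cartilage oligomeric matrix protein, had 6.98 ± 1.11 CPM in DDX4-null cells and 2.26 ± 0.419 CPM in control cells, a log2 change of 1.63 ± 0.18. ADAMTS6 rose by 0.85 ± 0.16. ADAMTS13, ADAMTS16, ADAMTS17 and ADAMTS20 were not called, with log2 changes between −0.43 and 0.16. After centring, ADAMTS16 was called lower, at −0.62 (adjusted p = 0.00943).

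**Figure D2:**
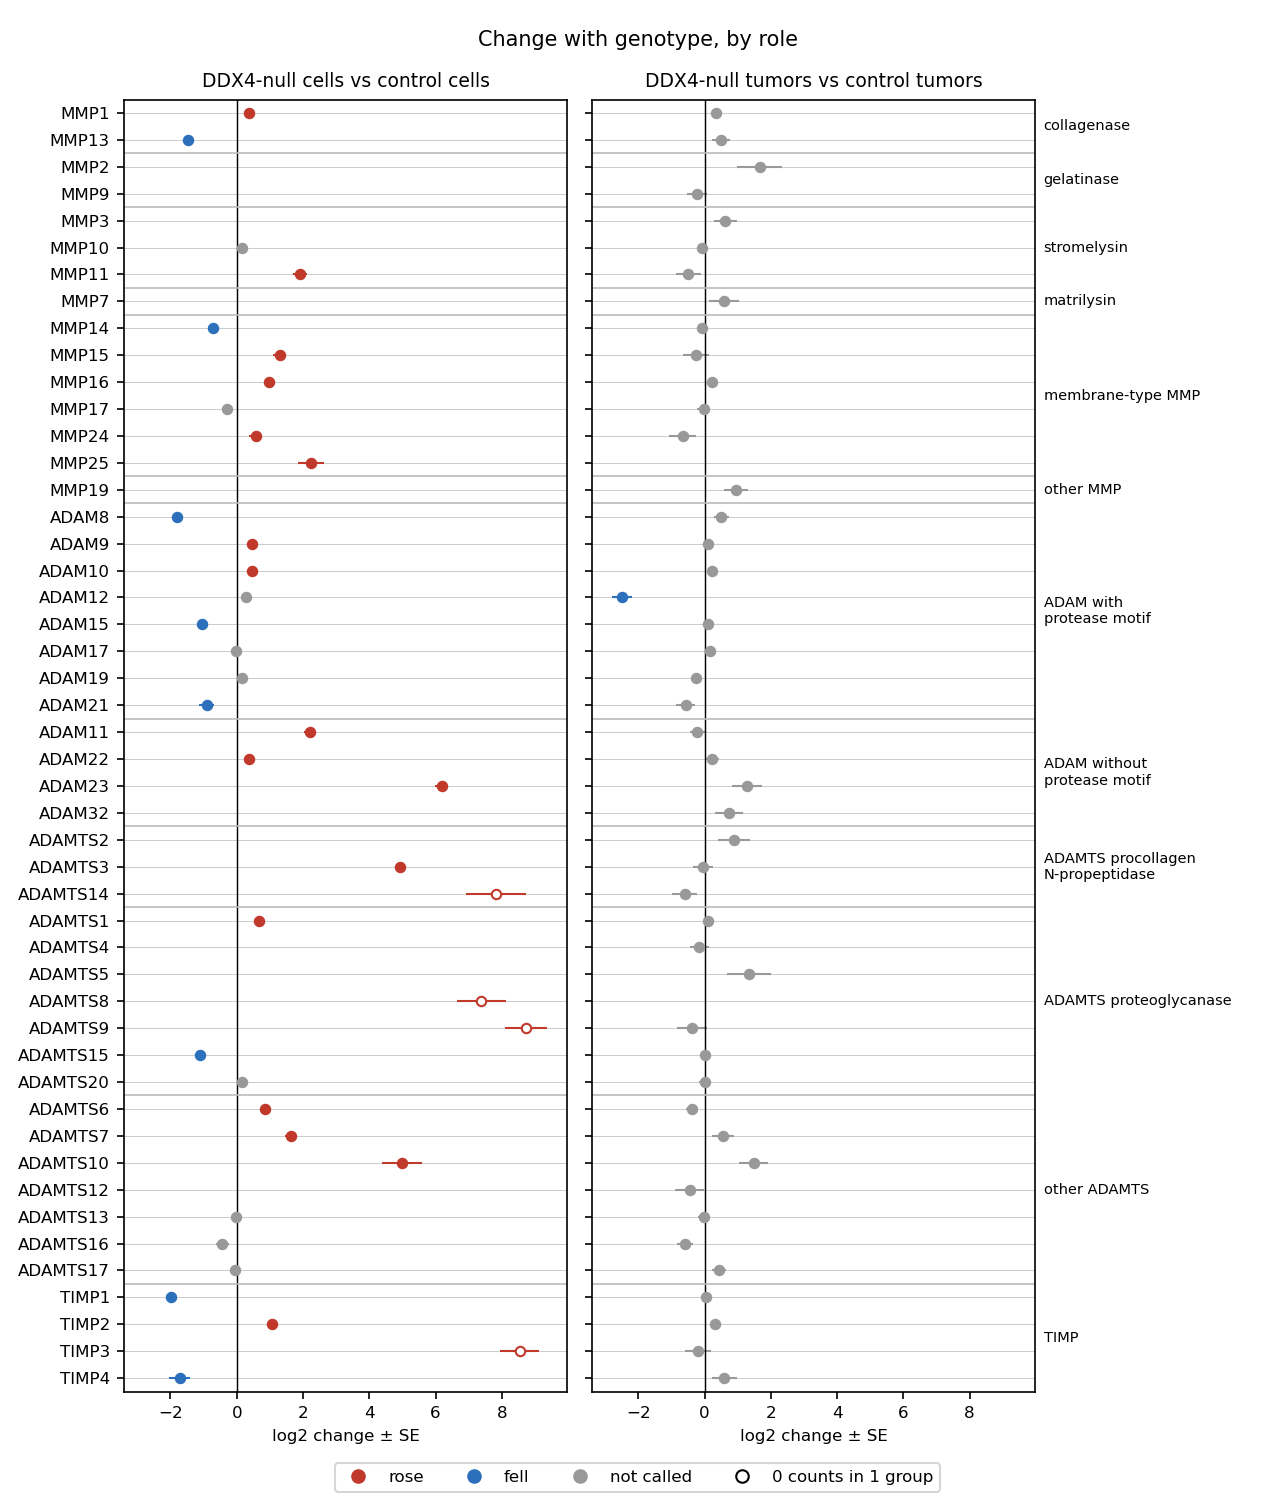
Log2 change with its SE for every member tested with genotype, on the same axis for cells (left) and tumors (right) and grouped by role. Open points had 0 counts in 1 group, so their fitted size is not a measured fold. In cells 21 points rose and 8 fell, while in tumors ADAM12 at −2.49 is the one called point.

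Markers of other cell types were measured beside these rises. The 9 fibroblast markers summed to 45.0 to 58.1 CPM in DDX4-null cells and 23.8 to 31.4 CPM in control cells, most of it COL1A1, and DCN, FAP, THY1 and POSTN had no count in DDX4-null cells. PDGFRA, one of the 9, had 9.39 ± 0.359 CPM in DDX4-null cells and 0.364 ± 0.115 CPM in control cells, a log2 change of 4.65 ± 0.21 (adjusted p = 3.4e-13). The 5 pericyte and smooth muscle markers summed to 38.0 to 43.4 CPM in DDX4-null cells and 11.3 to 13.5 CPM in control cells, with CSPG4 the largest in DDX4-null cells (31.2 CPM) and RGS5 in control cells (6.05 CPM). The 5 endothelial markers in the table summed to 31.3 to 35.7 CPM in DDX4-null cells and 14.4 to 16 CPM in control cells, most of it KDR. TIE1, one of the 5, had 6.40 ± 1.24 CPM in DDX4-null cells and 0.234 ± 0.0832 CPM in control cells, a log2 change of 4.70 ± 0.27 (adjusted p = 1.5e-11). The part of these genes in the rises was not tested.

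Promoter sequences of members with large rises are shown for their CpG dinucleotides, the sites at which DNA is methylated. Promoter sequences matched 38 members in the RefSeq table for GRCh38.p14. The motif counted was the dinucleotide CG, which reads the same on both strands and cannot overlap itself, in the 250 bases before the gene start. It occurred at least once in 93.9% of all 35116 promoters, with a median of 11 and an interquartile range of 3 to 23. The 12 matched members that rose in DDX4-null cells had a median of 25.5 and a range of 8 to 35, the 6 that fell a median of 11.5 and a range of 1 to 36, and the 7 tested and not called a median of 21.0. The 13 matched members that were not tested had a median of 4.00. TIMP3 had 26 CG, ADAMTS3 30, ADAM23 33 and ADAMTS14 35, while TIMP1 had 12. ADAMTS10, whose change was also large, had 13 and 32 in its 2 windows. Of members not called, ADAM12 and ADAM17 had 31 each, and MMP10 had 2, the fewest of the 7. The 150 bases just before the start of the 4 rising genes are shown with CG in capitals, followed by MMP10, which was chosen for its low count and holds no CG in this stretch.
TIMP3: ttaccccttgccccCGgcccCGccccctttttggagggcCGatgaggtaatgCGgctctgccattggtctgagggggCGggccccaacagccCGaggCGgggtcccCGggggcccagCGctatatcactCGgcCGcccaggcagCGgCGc
ADAM23: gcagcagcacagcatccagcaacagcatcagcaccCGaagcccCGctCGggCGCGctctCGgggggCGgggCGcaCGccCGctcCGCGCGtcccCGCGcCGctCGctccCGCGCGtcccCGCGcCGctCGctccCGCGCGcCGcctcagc
ADAMTS3: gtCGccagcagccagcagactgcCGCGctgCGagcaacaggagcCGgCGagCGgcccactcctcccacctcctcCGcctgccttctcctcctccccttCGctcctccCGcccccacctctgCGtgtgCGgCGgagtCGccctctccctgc
ADAMTS14: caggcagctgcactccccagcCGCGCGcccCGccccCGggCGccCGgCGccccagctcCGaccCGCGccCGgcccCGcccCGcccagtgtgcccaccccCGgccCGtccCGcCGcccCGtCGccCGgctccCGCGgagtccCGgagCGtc
MMP10: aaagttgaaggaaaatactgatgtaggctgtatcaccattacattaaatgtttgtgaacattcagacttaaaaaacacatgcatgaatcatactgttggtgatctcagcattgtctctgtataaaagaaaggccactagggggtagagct
These lie at chr22:32801555-32801704 (plus strand) for TIMP3, chr2:206443382-206443531 (plus strand) for ADAM23, chr4:72569222-72569371 (minus strand) for ADAMTS3, chr10:70672356-70672505 (plus strand) for ADAMTS14 and chr11:102780629-102780778 (minus strand) for MMP10, on GRCh38.p14. In these 150 bases ADAM23 held 28 CG, as many as or more than which 1.18% of all promoters hold, and ADAMTS14 held 25 (3.25%). ADAMTS3 held 14 (30.3%) and TIMP3 held 13 (33.7%). Methylation was not measured, and a count of CG is a description of the sequence.

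**Figure D3:**
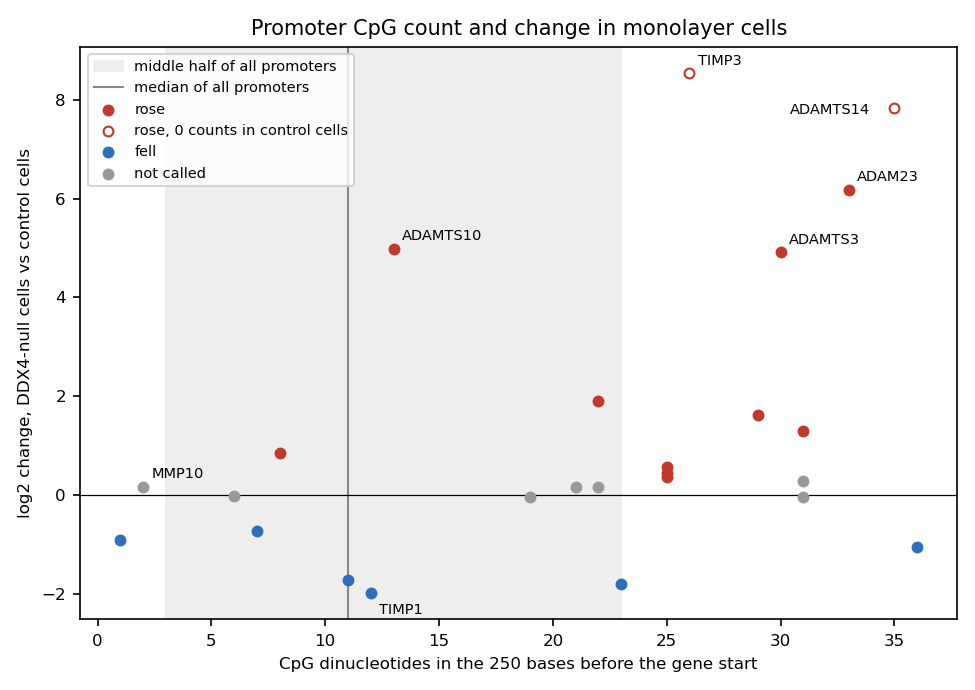
Number of CpG dinucleotides in the 250 bases before the gene start (x axis) against the log2 change in DDX4-null cells vs control cells (y axis), with 1 point per tested member that has a RefSeq promoter and the first of the 2 windows for ADAMTS10. The grey band is the interquartile range of all 35116 promoters (3 to 23) and the line their median of 11. TIMP3, ADAM23, ADAMTS3 and ADAMTS14 lie at 26 to 35 CpG, and ADAM15, which fell, at 36.

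The 25 members that failed the filter in monolayers held few counts. ADAM28 had 47 counts in the 4 DDX4-null libraries and 0 in the controls, ADAMTS12 had 39 and 2, ADAMTS2 had 34 and 0, and MMP9 had 80 and 10. ADAM32 went the other way, with 8 counts in DDX4-null cells and 31 in control cells. When every gene with a count was tested, edgeR called these 5, with adjusted p-values of 3.0e-07 for ADAM28, 3.3e-05 for ADAMTS12, 4.6e-06 for ADAMTS2, 3.9e-06 for MMP9 and 0.00145 for ADAM32. It also called MMP19 (0.0204), ADAMTS18 (0.00373) and ADAMTS19 (0.0184), all 3 higher in DDX4-null cells. MMP19 had 27 counts in DDX4-null cells and 7 in control cells, ADAMTS5 26 and 24, MMP3 14 and 10, ADAMTS18 13 and 0, ADAM20 11 and 20, and ADAMTS19 8 and 0. The rest (ADAM2, ADAM33, ADAMTS4, MMP2, MMP7, MMP8, MMP20, MMP21 and MMP27) had at most 5 counts in DDX4-null cells and at most 9 in control cells. MMP2, the gelatinase of stromal cells, MMP20 and MMP27 had no count in either group.

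The genes around these proteases were described from lists by role. Their counts in monolayers, here and in the next paragraph, stand beside 35.0% higher and 32.3% lower of all genes tested. Of 8 genes of precursor activation, 7 were tested, 3 rose and 2 fell. PCSK5, a proprotein convertase, had 12.5 ± 1.16 CPM in DDX4-null cells and 0.0980 ± 0.0904 CPM in control cells, and PCSK6 had 0.924 ± 0.191 CPM in DDX4-null cells and no count in control cells. PLAU, the urokinase that makes plasmin, rose by 1.65 ± 0.11, with 3309.7 ± 357 CPM in DDX4-null cells and 1056.0 ± 56.4 CPM in control cells. Its receptor PLAUR fell by 1.59 ± 0.10 on the same scale. Of 7 tested genes of other inhibitors and clearance receptors, 2 rose and 3 fell. SPOCK2 rose by 1.5 ± 0.23, while THBS1 fell by 1.18, LRP1 by 0.79 and RECK, a membrane-bound MMP inhibitor, by 0.67. Of 7 tested partners of ADAM17 and ADAM10, RHBDF1 rose (0.40 ± 0.11) and FRMD8, TSPAN15, TSPAN33 and RHBDF2 fell, by 0.83, 0.51, 0.43 and 0.35. TSPAN33 lies on chromosome 7, and its centred change was 0.29.

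Among the membrane proteins that these proteases shed, 26 of 28 were tested, 6 rose and 16 fell, with a median log2 change of −0.60, beside 0.02 for all genes tested. The tested ligands of the EGF receptor family all fell, with log2 changes of −5.72 for EPGN, −3.28 for BTC, −2.78 for AREG, −1.69 for HBEGF, −1.67 for EREG, −1.45 for TGFA and −1.18 for EGF. EPGN had 1.14 ± 0.261 CPM in DDX4-null cells and 60.3 ± 4.29 CPM in control cells. ICAM1 had 40.3 ± 5.03 CPM in DDX4-null cells and 320 ± 25.2 CPM in control cells, and VCAM1 had 0.0116 ± 0.0232 CPM in DDX4-null cells and 5.88 ± 0.299 CPM in control cells. Of 17 transcription factors known to act on protease genes, 4 rose and 9 fell, among them FOSB by 1.94, JUNB by 0.87 and NFKB1 by 0.66, while ETS2 rose by 0.67 ± 0.09, or 0.19 after centring. Of 8 tested related proteases and ADAMTS-like genes, 6 rose and 1 fell. PAPPA2, a protease of IGF-binding proteins, rose by 2.64 ± 0.36, PAPLN by 1.27 ± 0.18 and ADAMTSL5 by 0.62 ± 0.13, and TLL1 fell by 0.79.

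In tumors the main fit called 1 of the 46 members tested between the genotypes. ADAM12, an ADAM of muscle, placenta and tumor stroma that cuts IGF-binding proteins, had 1.59, 1.78, 0.744 and 0.934 CPM in DDX4-null tumors, against 9.67, 5.35, 6.86 and 6.38 CPM in control tumors. All 4 DDX4-null tumors lay below all 4 control tumors, with means of 1.26 ± 0.502 CPM in DDX4-null tumors and 7.07 ± 1.85 CPM in control tumors. The log2 change was −2.49 ± 0.29 (edgeR adjusted p = 0.00371), and the largest adjusted p in the 8 fits that left out 1 library was 0.028. ADAM12 was called in all other settings that could test it at the threshold of 0, and not against a 2-fold threshold (adjusted p = 0.0887). Skeletal muscle markers, of a tissue known to express ADAM12, summed to 121, 112, 6.30 and 260 CPM in DDX4-null tumors and to 80.6 to 267 CPM in control tumors, so they overlapped. The 5 pericyte and smooth muscle markers summed to 29 to 34 CPM in DDX4-null tumors and 31.3 to 33 CPM in control tumors. The 5 endothelial markers in the table summed to 24.2 to 43.1 CPM in DDX4-null tumors and 22.3 to 31.5 CPM in control tumors. Both sums thus overlapped, and single genes of these lists went either way. CSPG4 rose, with 9.02 ± 3.32 CPM in DDX4-null tumors and 4.01 ± 0.309 CPM in control tumors (log2 change 1.15 ± 0.24, adjusted p = 0.0359). ACTA2 had 8.17 ± 1.57 CPM in DDX4-null tumors and 13.1 ± 1.86 CPM in control tumors (−0.67 ± 0.17, adjusted p = 0.0682). VWF had 0.646 ± 0.235 CPM in DDX4-null tumors and 1.18 ± 0.134 CPM in control tumors (−0.83 ± 0.30, adjusted p = 0.151). KDR had 27.7 CPM in DDX4-null tumors and 18.2 CPM in control tumors, TEK 2.86 and 2.01, TIE1 3.44 and 5.18, and CDH5 1.2 and 1.34. In the same order RGS5 had 5.31 and 5.14 CPM, PDGFRB 8.99 and 8.64, and MYH11 0.72 and 1.28. CSPG4 alone was called among these genes. The part of these genes in the ADAM12 value was not tested. In monolayers ADAM12 had 7.25, 6.03, 7.10 and 6.72 CPM in DDX4-null cells and 5.90, 4.38, 5.63 and 6.27 CPM in control cells, so the DDX4-null tumors were the one group in which it was low. Its order was thus control tumors, DDX4-null cells, control cells and DDX4-null tumors, and the first 3 overlapped.

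Of the 46 members tested in tumors, 0 rose and 1 fell, while over all 12942 genes 0.981% rose and 1.10% fell. These shares are of 127 and 143 genes, and they hung on single libraries. Leaving out DDX4-null tumor 2 gave 59 rises and 70 falls, and leaving out DDX4-null tumor 3 gave 65 and 64. For control tumor 1 the counts were 67 and 67, for control tumor 2 they were 18 and 29, and for control tumor 3 they were 11 and 15. For DDX4-null tumor 1 the counts were 158 and 131, for DDX4-null tumor 4 they were 108 and 77, and for control tumor 4 they were 182 and 92. With the replicate block they were 258 and 167. DESeq2 called 481 higher and 399 lower. At an unadjusted p under 0.05 there were 7 higher and 3 lower members, 21.7% of the 46 beside 21.3% of all genes. DESeq2 also called TIMP2 (0.32 ± 0.09), ADAMTS10 (1.53 ± 0.52) and MMP1 (0.34 ± 0.11). The groups did not overlap for 5 members, namely ADAM12, ADAM23, ADAMTS7, MMP1 and TIMP2, which is 10.9% beside 12.6% of all genes tested. TIMP2 had 397, 313, 350 and 369 CPM in DDX4-null tumors, against 304, 283, 284 and 279 CPM in control tumors (log2 change 0.31 ± 0.09, adjusted p = 0.102). MMP1 had 107, 146, 134 and 115 CPM in DDX4-null tumors, against 90.4, 103, 101 and 102 CPM in control tumors (0.34 ± 0.11, adjusted p = 0.118). ADAM23 had 3.27, 1.03, 1.09 and 0.810 CPM in DDX4-null tumors, against 0.491, 0.765, 0.694 and 0.456 CPM in control tumors (1.27 ± 0.45, adjusted p = 0.148). ADAMTS7 had 1.5, 1.35, 1.60 and 1.62 CPM in DDX4-null tumors, against 1.26, 1.24, 1.24 and 0.405 CPM in control tumors (0.55 ± 0.33, adjusted p = 0.352). These 4 members were short of the threshold, and a share of 10.9% was no higher than that of all genes.

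The other TIMPs did not pass the test in tumors. TIMP1 had 269, 283, 219 and 218 CPM in DDX4-null tumors, against 229, 248, 257 and 234 CPM in control tumors, a log2 change of 0.03 ± 0.10. TIMP3 had 1.24, 0.433, 0.401 and 0.685 CPM in DDX4-null tumors, against 0.841, 0.941, 0.657 and 0.608 CPM in control tumors. TIMP4 had 0.442, 1.89, 1.09 and 1.49 CPM in DDX4-null tumors, against 0.771, 0.824, 0.730 and 1.01 CPM in control tumors. For all 3 the groups overlapped. MMP13 had 45.1, 119, 132 and 73.5 CPM in DDX4-null tumors, against 68.5, 66.2, 67.9 and 59.9 CPM in control tumors, so the DDX4-null tumors spread on both sides of the control range. Without DDX4-null tumor 1, MMP13 (0.73, adjusted p = 0.0365) and MMP1 (0.41, adjusted p = 0.0494) were called, which made 3 calls in place of 1.

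DDX4-null tumor 1 stood apart in fibroblast markers and several members. MMP2 had 202, 20.4, 24.0 and 26.0 CPM in DDX4-null tumors, against 25.6, 13.2, 17.7 and 28 CPM in control tumors. The 9 fibroblast markers summed to 11003.8, 1671.9, 1921.8 and 1902.6 CPM in DDX4-null tumors, against 1850.6, 1395.1, 1575.2 and 1897.3 CPM in control tumors. One library was thus high for both, and the other 7 had similar values. It was also highest of the tumors for ADAMTS2 (30.2 CPM), MMP3 (13.1 CPM), ADAMTS5 (10.1 CPM), ADAM23 (3.27 CPM), MMP19 (3.01 CPM) and MMP27 (1.41 CPM). Its 7 leukocyte markers summed to 72.0 CPM, beside 13.9 to 36.9 CPM in the other DDX4-null tumors and 15.2 to 32.5 CPM in control tumors. For ADAM12 it did not differ in this way, with 1.59 CPM. In tumor tissue, fewer cells of a type and less RNA per cell cannot be told apart, and removal of host reads is not stated in the sources used here.

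**Figure D4:**
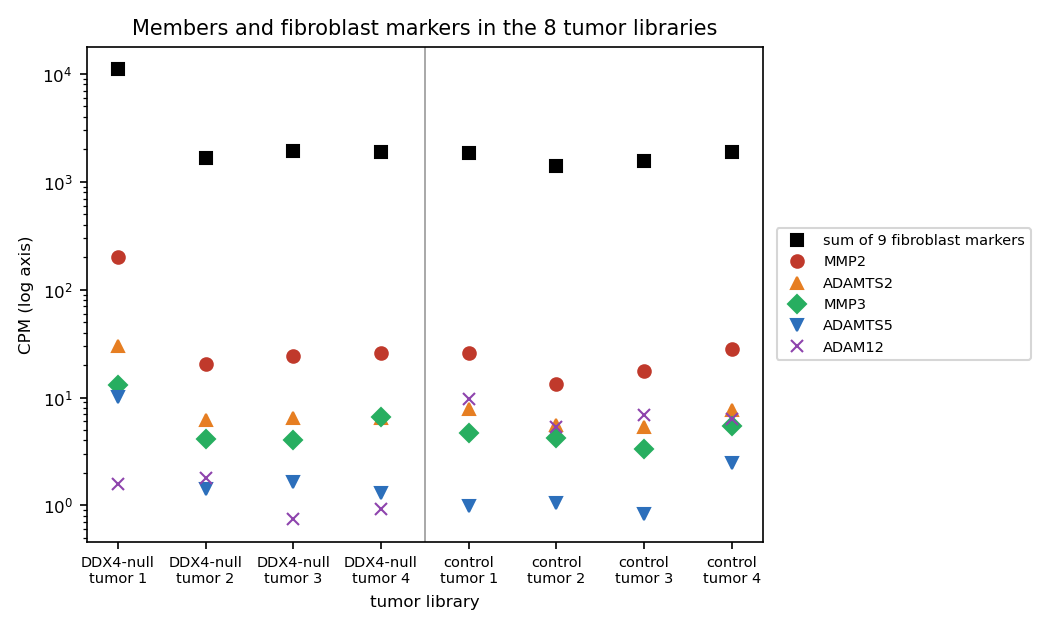
CPM on a log axis in the 8 tumor libraries for 5 members and for the sum of 9 fibroblast markers. In DDX4-null tumor 1 MMP2 is at 202 CPM and the marker sum at 11003.8 CPM, while the other 7 tumors lie at 13.2 to 28 CPM for MMP2 and at 1395.1 to 1921.8 CPM for the marker sum. ADAM12 separates the 2 genotypes.

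The members that failed the filter in tumors included MMP25 (21 counts in DDX4-null tumors and 19 in control tumors), ADAM20 (17 and 14), ADAMTS19 (15 and 6), ADAM28 (10 and 2), MMP21 (8 and 3), MMP8 (4 and 2), ADAMTS8 (4 and 2) and ADAM33 (3 and 0). MMP27 had 25 counts in DDX4-null tumors and 5 in control tumors. Of the lists around these proteases, 2 genes passed the test in tumors. RHBDF1, an iRhom that carries ADAM17 to the surface, rose by 0.55 ± 0.11, with 86.6 ± 11.6 CPM in DDX4-null tumors and 59.2 ± 6.92 CPM in control tumors (adjusted p = 0.0351). ADAMTSL3 fell by 0.63 (SE 0.13), with 21.0 ± 3.97 CPM in DDX4-null tumors and 32.7 ± 1.21 CPM in control tumors (adjusted p = 0.0341). No gene among the 21 tested shed proteins or the 17 transcription factors was called.

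Tumors were also compared with the monolayers of their own genotype. DDX4-null tumors differed from DDX4-null cells in 34 of 45 members tested, with 13 higher and 21 lower, beside 34.6% higher and 35.3% lower of all 13277 genes. Control tumors differed from control cells in 33 of 40 members tested, with 21 higher and 12 lower, beside 33.9% higher and 31.0% lower of all 12858 genes. Of the rises, 7 in the DDX4-null comparison and 9 in the control comparison were in genes below 1 CPM in cells. The 2 comparisons share no library.

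MMP2, MMP3 and ADAMTS2 were higher in tumors of both genotypes. MMP2 had no count in either monolayer group, so it was at least 1353.1-fold higher in DDX4-null tumors and at least 433-fold higher in control tumors. Its exons overlap AC007336.3 on the same strand. MMP3, the stromelysin of fibroblasts, had 13.1, 4.11, 4.07 and 6.60 CPM in DDX4-null tumors and 0.215, 0.118, 0.0607 and 0.324 CPM in DDX4-null cells, a log2 change of 5.14 ± 0.51. It had 4.70, 4.24, 3.36 and 5.42 CPM in control tumors and 0.199, 0.144, 0.276 and 0 CPM in control cells, a log2 change of 4.73 ± 0.37. ADAMTS2, the main procollagen I N-propeptidase, had 30.2, 6.16, 6.47 and 6.42 CPM in DDX4-null tumors and 0.429, 0.355, 0.485 and 0.556 CPM in DDX4-null cells (4.70 ± 0.59). In control tumors it had 7.85, 5.53, 5.29 and 7.60 CPM with no count in control cells, at least 133-fold higher in control tumors. No tumor library overlapped the cells for these genes. Without DDX4-null tumor 1, the mean of MMP2 in DDX4-null tumors was 23.5 CPM, against no count in DDX4-null cells. The log2 change was then 3.79 ± 0.25 for ADAMTS2 and 4.67 ± 0.36 for MMP3.

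The aggrecanases ADAMTS4 and ADAMTS5 rose too. ADAMTS4 had 3.10, 2.27, 1.66 and 3.24 CPM in DDX4-null tumors and 0.107, 0, 0 and 0.0927 CPM in DDX4-null cells, a log2 change of 5.39 ± 0.52. It had 3.43, 3.18, 1.75 and 3.09 CPM in control tumors against 2 counts in control cells, a ratio of 84.6 with a 95% counting interval of 23.1 to 703. ADAMTS5 had 10.1, 1.41, 1.66 and 1.31 CPM in DDX4-null tumors and 0.322, 0.296, 0.364 and 0.417 CPM in DDX4-null cells (3.27 ± 0.69, or 2.05 ± 0.33 without DDX4-null tumor 1). It rose by 1.79 ± 0.43 in control tumors, with 1.34 ± 0.767 CPM in control tumors and 0.380 ± 0.194 CPM in control cells. MMP19 had 3.01, 1.19, 1.03 and 1.56 CPM in DDX4-null tumors and 0.537, 0.414, 0.303 and 0.232 CPM in DDX4-null cells. Its log2 change was 2.14 ± 0.41, or 1.77 ± 0.36 without DDX4-null tumor 1.

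Of 21 members below 0.5 CPM in both monolayer groups, 7 reached 1 CPM in a tumor group, namely ADAMTS2, ADAMTS4, ADAMTS5, MMP2, MMP3, MMP7 and MMP19. That is 33.3%, beside 3.90% of the 6971 genes of the whole table below the same limit. The 9 fibroblast markers summed to 1671.9 to 11003.8 CPM in DDX4-null tumors and 45.0 to 58.1 CPM in DDX4-null cells, and to 1395.1 to 1897.3 CPM in control tumors and 23.8 to 31.4 CPM in control cells. Skeletal muscle markers summed to 6.30 to 260 CPM in DDX4-null tumors and 80.6 to 267 CPM in control tumors, and to at most 1.36 CPM in cells. The part of these markers, and of host RNA, in the rises was not tested.

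Other members also changed. MMP13 had 45.1 to 132 CPM in DDX4-null tumors and 4.87 to 6.5 CPM in DDX4-null cells, a log2 change of 4.04 ± 0.29 (adjusted p = 6.0e-08). It had 59.9 to 68.5 CPM in control tumors and 14.5 to 16.7 CPM in control cells, a log2 change of 2.08 ± 0.09 (adjusted p = 8.3e-12). MMP14 rose in both, with 319 ± 62.7 CPM in DDX4-null tumors and 128 ± 13.4 CPM in DDX4-null cells (1.33 ± 0.14), and with 336 ± 28.4 CPM in control tumors and 212 ± 20.7 CPM in control cells (0.67 ± 0.09). ADAM19 rose by 0.71 ± 0.10 in DDX4-null tumors and by 1.14 ± 0.09 in control tumors, where it had 192 ± 15.7 CPM against 87.2 ± 4.15 CPM in control cells. MMP9, the gelatinase of leukocytes and tumor cells, had 1.68, 2.47, 1.64 and 1.37 CPM in control tumors and 0, 0.215, 0.221 and 0.194 CPM in control cells, a log2 change of 3.42 ± 0.42. In DDX4-null tumors MMP9 had 0.973, 2.22, 1.32 and 1.49 CPM against 1.61, 1.12, 0.546 and 1.02 CPM in DDX4-null cells, with overlapping groups and no call (adjusted p = 0.193).

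TIMP1 fell by 1.81 on the log2 scale (SE 0.11) in control tumors relative to control cells, with 242 ± 12.6 CPM in control tumors and 852 ± 138 CPM in control cells. In DDX4-null tumors it was not called, with 247 ± 34.0 CPM against 216 ± 39.6 CPM in DDX4-null cells (0.21 ± 0.14, adjusted p = 0.184). TIMP2 rose by 0.78 ± 0.10 in control tumors and was not called in DDX4-null tumors (0.01 ± 0.13, adjusted p = 0.941). TIMP3, with no count in control cells, was at least 15.4-fold higher in control tumors, and it fell by 2.04 (SE 0.33) in DDX4-null tumors relative to DDX4-null cells. TIMP4 fell by 1.05 (SE 0.24) in control tumors and rose by 1.27 ± 0.46 in DDX4-null tumors, where 4 of 8 fits without 1 library did not call it.

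The largest falls in DDX4-null tumors were measured against the same DDX4-null cell libraries that the genotype comparison in cells used, so the values stand side by side without a count of shared members. ADAMTS3 had 1.24, 3.41, 4.12 and 1.99 CPM in DDX4-null tumors and 44.7 to 56.6 CPM in DDX4-null cells, a log2 change of −4.15 ± 0.24 (adjusted p = 7.7e-09). ADAM23 had 3.27, 1.03, 1.09 and 0.810 CPM in DDX4-null tumors and 18.8 to 22.9 CPM in DDX4-null cells, a log2 change of −3.79 ± 0.30, or −4.34 ± 0.19 without DDX4-null tumor 1. ADAMTS8 had 4 counts in the 4 DDX4-null tumors and 0.828 to 1.39 CPM in DDX4-null cells. No tumor library reached the range of the cells for these genes. ADAMTS9 (0.177, 1.03, 0.916 and 0.934 CPM in DDX4-null tumors) fell by 1.93, and ADAMTS14 fell by 1.91. ADAM12 fell by 2.41 (SE 0.26), MMP24 by 2.29, ADAMTS7 by 2.18, MMP11 by 2.15, MMP25 by 2.04, MMP15 by 1.88, ADAM11 by 1.60 and ADAMTS17 by 1.24. ADAM8 went the other way, with 118, 49.7, 53.6 and 75.1 CPM in DDX4-null tumors and 25.5 to 33.1 CPM in DDX4-null cells, a rise of 1.32 ± 0.22. ADAMTS10 was not called (−0.34 ± 0.39, adjusted p = 0.458).

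Library values of 4 further members with a fall of over 2 on the log2 scale were as follows. MMP24 had 0.265, 0.703, 0.401 and 0.934 CPM in DDX4-null tumors, and 2.55 to 3.38 CPM in DDX4-null cells. ADAMTS7 had 1.5, 1.35, 1.60 and 1.62 CPM in DDX4-null tumors, and 5.79 to 8.38 CPM in DDX4-null cells. MMP11 had 0.354, 0.649, 1.37 and 1.06 CPM in DDX4-null tumors, and 3.52 to 4.24 CPM in DDX4-null cells. MMP25 had 0.0884, 0.487, 0.229 and 0.436 CPM in DDX4-null tumors, and 0.887 to 1.83 CPM in DDX4-null cells. For these 4 genes no tumor library overlapped the cells.

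Of the 12 members that fell in control tumors, the 6 largest falls besides those of TIMP1 and TIMP4 follow. ADAMTS17 fell by 1.75 (SE 0.17), with 3.37 ± 0.911 CPM in control tumors and 11.2 ± 1.44 CPM in control cells. ADAMTS15 fell by 1.55, ADAM21 by 1.30, ADAMTS7 by 1.11, MMP24 by 1.05 and ADAM8 by 1.00 on the log2 scale. ADAM8 had 51.6 ± 3.96 CPM in control tumors and 104 ± 6.64 CPM in control cells. ADAMTS9 had 1.40, 0.647, 0.621 and 1.57 CPM in control tumors and no count in control cells, at least 21.0-fold higher in control tumors. MMP16 rose by 1.06 ± 0.14, with 49.7 ± 11.1 CPM in control tumors and 23.8 ± 2.36 CPM in control cells. When libraries were scaled by their totals alone, all genes moved up by a median of 0.19 in this comparison, the members split into 22 higher and 10 lower, and 66.0% of all calls were rises in place of 52.2%.

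**Figure D5:**
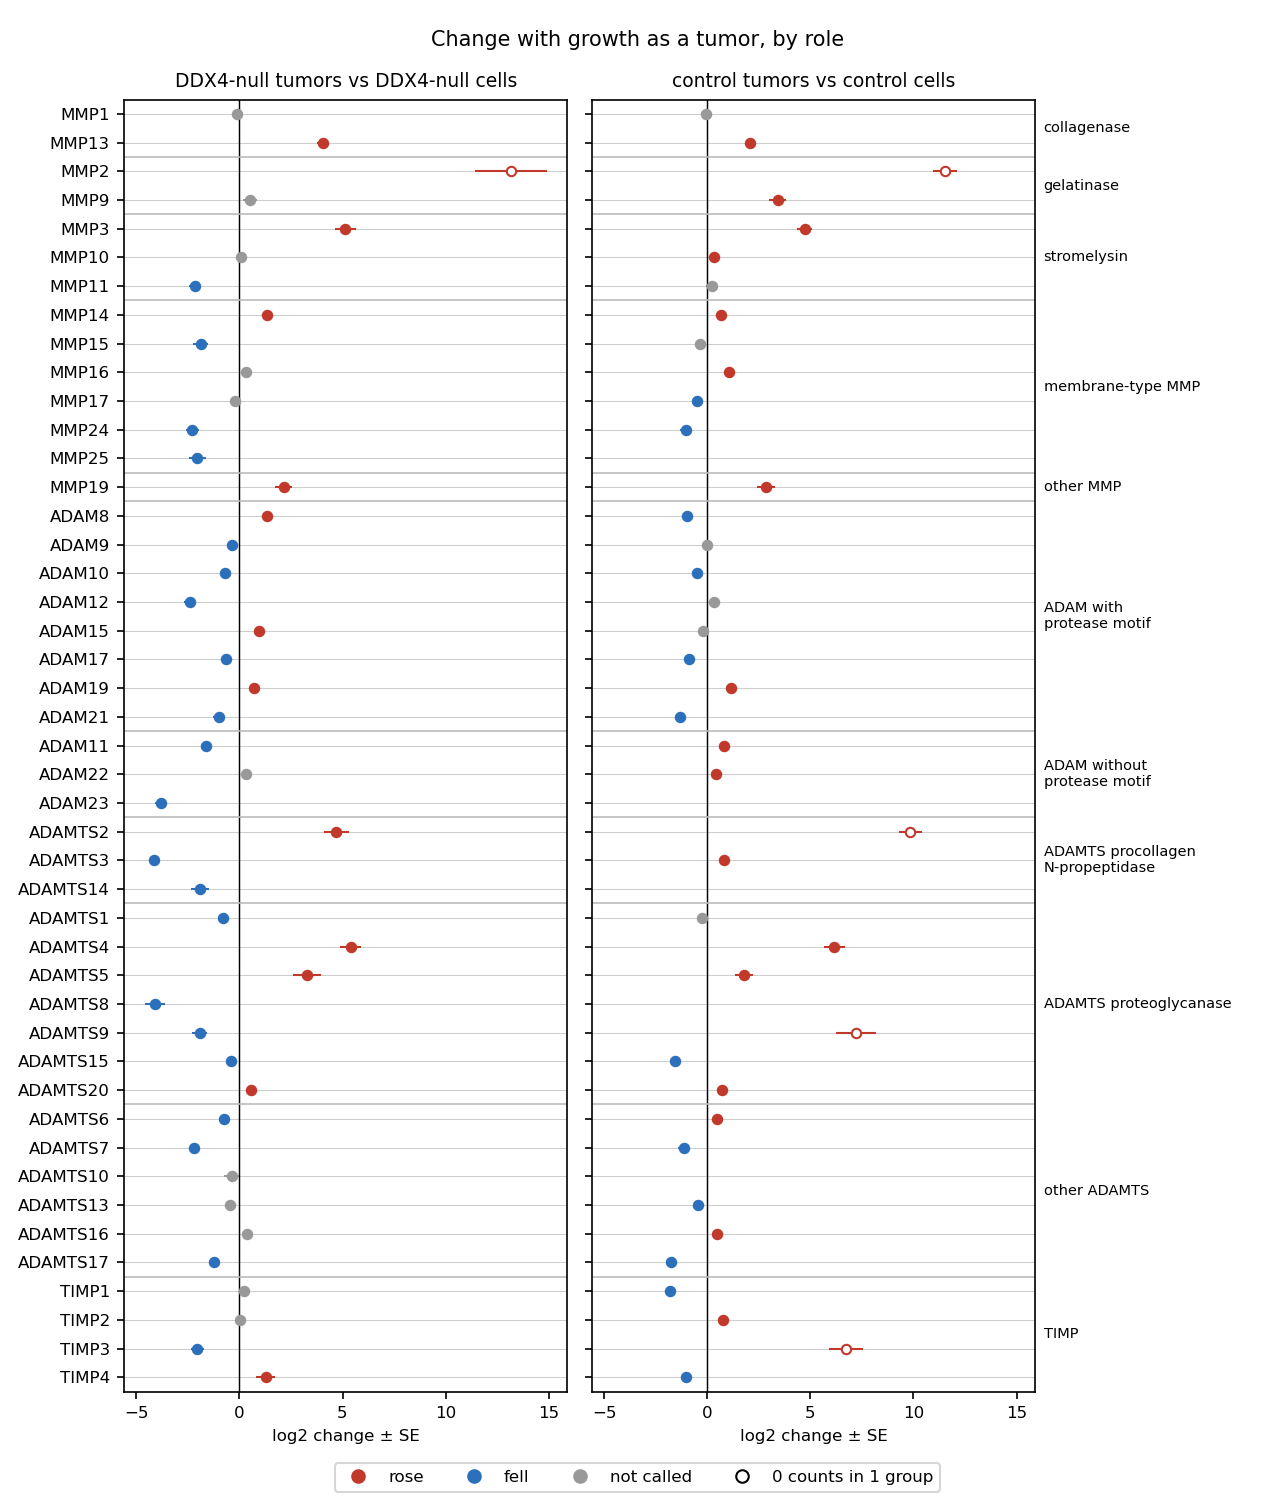
Log2 change with its SE for every member tested between tumors and cells, on the same axis for DDX4-null libraries (left) and control libraries (right) and grouped by role. Open points had 0 counts in the cells, so their fitted size is not a measured fold. MMP13, MMP14, ADAM19 and MMP2, MMP3, ADAMTS2, ADAMTS4 and ADAMTS5 rose in both, while ADAMTS3 rose in control tumors (0.79) and fell in DDX4-null tumors (−4.15).

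The change with genotype was tested for a difference between tumors and cells in 1 model of all 16 libraries. Of 48 members tested, the change was more positive in tumors for 8 and more negative for 22, beside 26.0% and 26.8% of all 13603 genes. TIMP1 was more positive in tumors by 2.01 ± 0.19 on the log2 scale (adjusted p = 3.2e-08), with a genotype change of 0.03 in tumors and of −1.98 in cells. ADAM32 (2.87 ± 0.71), ADAM8 (2.32 ± 0.26), TIMP4 (2.32 ± 0.53), MMP13 (1.96 ± 0.32), ADAM15 (1.16 ± 0.17) and ADAMTS15 (1.11 ± 0.18) shared this direction. ADAM12 was more negative in tumors by 2.77 (SE 0.32, adjusted p = 5.3e-07). So were ADAMTS3 (−4.95 ± 0.32), ADAM23 (−4.95 ± 0.55), ADAM11 (−2.42 ± 0.28), MMP11 (−2.39 ± 0.42), MMP15 (−1.54 ± 0.42), ADAMTS6 (−1.21 ± 0.23) and TIMP2 (−0.77 ± 0.17). ADAMTS9, TIMP3, ADAMTS14 and ADAMTS8 were also called more negative, and their size is not measured because control cells held no count. Of the 30 called members, 8 were not called after centring by chromosome, namely ADAM9, ADAM19, ADAMTS1, ADAMTS7, MMP14, MMP16, MMP24 and MMP25.

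The lists around the proteases were counted in the same way between tumors and cells. Of all genes tested, 34.6% rose and 35.3% fell in DDX4-null tumors, and 33.9% rose and 31.0% fell in control tumors. For the difference between settings, 26.0% were more positive and 26.8% more negative in tumors. Of the tested shed membrane proteins, 6 of 25 rose and 11 fell in DDX4-null tumors relative to DDX4-null cells, and 5 of 26 rose and 18 fell in control tumors relative to control cells. SDC1, a heparan sulfate proteoglycan, rose in both, with 1333.9 ± 427 CPM in DDX4-null tumors and 98.0 ± 11.5 CPM in DDX4-null cells, and with 1256.0 ± 232 CPM in control tumors and 89.8 ± 2.55 CPM in control cells. EPGN fell by 5.74 and ICAM1 by 2.96 in control tumors relative to control cells. Among the activators, PLAU fell by 2.38 in DDX4-null tumors and by 0.65 in control tumors. Of the inhibitors and clearance receptors, 6 of 8 rose and 1 fell in DDX4-null tumors, and 6 of 8 rose and 2 fell in control tumors. THBS2, a stromal thrombospondin, had 18.7 ± 12.7 CPM in DDX4-null tumors and 0.0380 ± 0.0459 CPM in DDX4-null cells, and 14.8 ± 3.46 CPM in control tumors and 0.0138 ± 0.0276 CPM in control cells. SPOCK1 rose by 1.78 ± 0.12 in DDX4-null tumors and by 1.30 ± 0.10 in control tumors. Of the 17 transcription factors, 2 rose and 11 fell in DDX4-null tumors, and 1 rose and 13 fell in control tumors, where JUNB fell by 2.23, RUNX2 by 1.71 and NFKB1 by 1.29. Between settings, the genotype change of 12 of 26 shed proteins was more positive in tumors and of 4 more negative, as for EPGN (5.03 ± 0.37), AREG (3.51 ± 0.28) and ICAM1 (2.54 ± 0.22).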

How the data were processed

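The authors deposited whole-number counts for each Ensembl gene ID and each of 16 libraries. DNase-treated RNA and a stranded mRNA kit were used per the labels' protocols. Trimmomatic 0.39, STAR 2.7.10a, featureCounts 2.0.3 and build GRCh37 are named per the submitters' processing notes. How strand, gene annotation and host reads were handled is not given in the sources used here, so overlapping genes and near copies cannot be told apart. Overlaps are given above for only some of the members that have one. A gene name table named 19446 IDs, GENCODE v29 named 65 more, and 845 had no symbol. Gene type, chromosome and exon length came from GENCODE v29.

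From the counts, each pair of groups was fitted on its 8 libraries with edgeR 4.0.16 in R 4.3.3 (quasi-likelihood F test, TMM scaling, filterByExpr, Benjamini-Hochberg over all genes tested, threshold 0.05), and the difference of the genotype changes on 16 libraries. The test was tried on simulated counts. Printed levels are TMM-scaled CPM of all 16 libraries with SD, and log2 changes carry their SE. Folds against 0 counts use 3 counts over the group. Without molecular identifiers, intervals and floors reflect counting error alone. Lists were only counted.

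Named members were called ones reaching 1 CPM in either group with a log2 change of at least 1 either way, with library values at 2 or more and for all TIMPs, other called members as examples, and up to 4 called genes of each list by smallest p. BTC, HBEGF, EREG, TGFA, EGF and RHBDF2 were added after their values were seen. The members, the lists and the tests were chosen with earlier results of these data known. Alternatives were DESeq2 1.42.0, median-ratio factors, scaling to totals, no filter or one at 5 CPM, a 2-fold threshold, a replicate block, 1 model of all libraries, centring by chromosome, and leaving out each library.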

Additional observations from a re-analysis of the deposited data

Results flagged for a closer look

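The change with genotype differed between tumors and cells by the test of the difference itself (edgeR, 16 libraries) for 30 members. It was more negative in tumors for ADAMTS9 (−9.13), TIMP3 (−8.78), ADAMTS14 (−8.47), ADAMTS8 (−6.32), ADAMTS3 (−4.95), ADAM23 (−4.95), ADAMTS12 (−4.21), ADAMTS10 (−3.51), MMP9 (−2.93), ADAM12 (−2.77), ADAM11 (−2.42), MMP11 (−2.39), MMP25 (−1.83), MMP15 (−1.54), MMP24 (−1.23), ADAMTS6 (−1.21), ADAMTS7 (−1.08), TIMP2 (−0.77), MMP16 (−0.74), ADAMTS1 (−0.57), ADAM19 (−0.45) and ADAM9 (−0.38), as differences of log2 changes. It was more positive in tumors for ADAM32 (2.87), ADAM8 (2.32), TIMP4 (2.32), TIMP1 (2.01), MMP13 (1.96), ADAM15 (1.16), ADAMTS15 (1.11) and MMP14 (0.65). The sizes for ADAMTS9, TIMP3, ADAMTS14 and ADAMTS8 rest on a group with 0 counts and are fitted values only, and that for ADAMTS12 on 2 counts in control cells.

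In 7 of 59 groups of 4 libraries, 1 library lay far from the other 3. Chance gives about 1 in 20 for independent groups, but these groups share libraries, so an excess over chance cannot be read from this. DDX4-null tumor 1 was the high library for MMP2 (202 CPM), ADAMTS2 (30.2 CPM), ADAMTS5 (10.1 CPM) and ADAM23 (3.27 CPM). It also had the highest sum of fibroblast markers, whose part in these values was not tested. Control tumor 4 was high for ADAMTS5 (2.48 CPM) and low for ADAMTS7 (0.405 CPM), and control tumor 2 was high for MMP11 (1.76 CPM).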

How the results depend on the processing

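Counts of called members under another setting are given beside 29 in DDX4-null against control cells, 1 in DDX4-null against control tumors, 34 in DDX4-null tumors against cells, 33 in control tumors against cells and 30 for the difference between settings. With every gene that had a count they were 37, 1, 39, 39 and 31. With genes of at least 5 CPM they were 16, 0, 17, 16 and 15, as fewer genes were tested, and with a 2-fold threshold 15, 0, 21, 12 and 17. In tumors DESeq2 called 4 and the model of all 16 libraries 2 (ADAM23 added). Leaving out 1 library gave 28 to 32 in cells, 1 to 3 in tumors, 34 to 39 in DDX4-null tumors against cells, 32 to 36 in control tumors against cells and 28 to 31 for the difference. No called member changed direction in any of these settings. Whether replicate numbers pair libraries is not labelled. Correlations of deviations between libraries of the same number were mixed, at −0.171, −0.231, 0.394 and 0.249 in cells. Between the genotypes in tumors they were 0.198, 0.176, 0.01 and −0.058. With the replicate block the counts of called members were 29, 1, 34, 33 and 31. Scaling by library totals moved the share of rises among all calls to 36.6% in DDX4-null against control tumors, where it was 47.0%, and the share of more positive changes to 38.2% for the difference between settings, where it was 49.2%, with a median shift of all genes of −0.16. It called 0 and 1 members in these tumors, and 8 and 23 for the difference. Centring by chromosome added calls of MMP10, ADAM17 and ADAMTS16 in cells, MMP15 and ADAMTS1 in control tumors against cells, MMP16 and MMP1 in DDX4-null tumors against cells, and ADAM22, ADAMTS17, ADAM17 and MMP10 for the difference. With 4 libraries a group, small changes and genes of few counts are measured with the largest error.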
